A study of Homo sapiens with 18 samples.

Results

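The comparison concerns trimethylation of histone H3 at lysine 27 (H3K27me3) in V16D cells that overexpress the long noncoding RNA H19 (V16D/H19) and in control V16D cells (V16D/CTL). V16D is a castration-resistant prostate cancer line derived from LNCaP, and both groups were grown in RPMI1640 with 10% FBS. The cells were transduced with lentivirus in biological triplicate, either with a control lentivector or with one that overexpresses H19, so that the control cells carry a vector too. The 6 H3K27me3 libraries, 3 of each group, were taken of 18 libraries in the series. The other libraries are 6 of H3K4me3 and 6 of input chromatin. The question was which genes lost or gained the mark when H19 was overexpressed. The level of H19 itself cannot be read from chromatin data and was not checked.

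H3K27me3 is laid down by Polycomb repressive complex PRC2, and it covers genes that are held silent in a given cell type. In differentiated epithelial cells these are mostly developmental transcription factors, signalling ligands, and neuronal channels and receptors. Some silent promoters also carry H3K4me3, the mark of active or poised promoters, and are then called bivalent. In prostate cancer the mark is of interest because neuronal and neuroendocrine genes are among the genes it covers.

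The unit of measurement was the fold enrichment over input that the authors' peak caller gave to each peak. For each of 19671 protein-coding genes the mean fold was taken over 1 kb on each side of the gene start, and bases in no peak were given a fold of 1, so a promoter with no peak has a fold of 1. A promoter counted as marked, and was tested, where at least 2 of the 6 libraries had a peak in that window. This held for 2423 genes (12.3%), of which 1267 were marked in all 6 libraries. Read totals were not used here, and the replicates limit the precision of each value.

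Luminal prostate genes had the promoter pattern of active genes in both groups. None of the 8 luminal genes examined (KRT8, KRT18, KLK2, KLK3, TMPRSS2, FKBP5, ABCC4 and ZBTB10) had an H3K27me3 promoter peak in any library, and all 8 had an H3K4me3 peak in all 3 libraries of each group. Chromogranin A (CHGA), a neuroendocrine secretory protein, had no H3K4me3 promoter peak in any library and had H3K27me3 in 2 V16D/CTL and 3 V16D/H19 libraries. Other neuroendocrine markers differed from it. Synaptophysin (SYP) had H3K4me3 in all 3 libraries of each group and H3K27me3 in none, as the luminal genes did, and ENO2 had H3K4me3 in all 3 of each group beside H3K27me3 in 2 V16D/CTL libraries and 1 V16D/H19 library. CHGB and NCAM1 had H3K27me3 in all 6 libraries, with H3K4me3 in 0 and 1 V16D/CTL libraries and in 2 V16D/H19 libraries each.

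Which functions the marked genes share was read from 33 gene lists. Of 26 glutamate receptor genes, 23 were marked (88.5%), against 12.3% of all protein-coding genes. Several families of developmental regulators were marked at many of their genes. Among homeobox and paired-box factors outside the HOX clusters 68 of 126 were marked (54.0%), and the shares were 52.6% of 19 SOX factors, 52.0% of 50 developmental bHLH factors and 51.2% of 43 WNT ligands, receptors and antagonists. Potassium channels were marked at 47 of 95 genes (49.5%). Other lists were nearly bare. Only 8 of 508 ZNF zinc finger genes and 2 of 82 cytosolic ribosomal protein genes were marked, and of 69 replication-dependent histone genes none was.

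The mark was lower at these promoters in V16D/H19. At the 1267 promoters marked in all 6 libraries the V16D/CTL libraries had median folds of 3.53, 3.71 and 3.79 (mean 3.68 ± 0.137, SD, n = 3). The V16D/H19 libraries had 2.81, 2.91 and 2.99 (mean 2.91 ± 0.0891, SD, n = 3), and the groups did not overlap. Promoters with a peak numbered 2008, 2192 and 2255 in V16D/CTL, against 1794, 1934 and 1941 in V16D/H19, again without overlap. For both quantities the exact two-sided permutation test over the 20 assignments of libraries gave p = 0.1, the smallest value that 3 against 3 libraries allow. The number of peaks did overlap between groups, at 55060 to 72289 in V16D/CTL and 56239 to 62879 in V16D/H19 (exact permutation p = 0.5). Bases in peaks were placed somewhat differently. Gene bodies, beyond 5 kb from any start, held 38.5% to 38.8% of peak bases in the V16D/CTL libraries and at least 39.9% in each V16D/H19 library (exact permutation p = 0.1), whereas the share within 5 kb of a start overlapped between groups (12.9% to 14.7% against 12.7% to 13.4%, exact permutation p = 0.5). Fold over input has no outside standard here, so a lower level of the mark and a weaker enrichment of the V16D/H19 libraries cannot be told apart. By Western blot the paper reports that transient H19 overexpression raised H3K27me3 in V16D cells, opposite in direction to the fold here. That is a measure of histone protein in other samples, and it was not compared with these libraries.

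**Figure D1:**
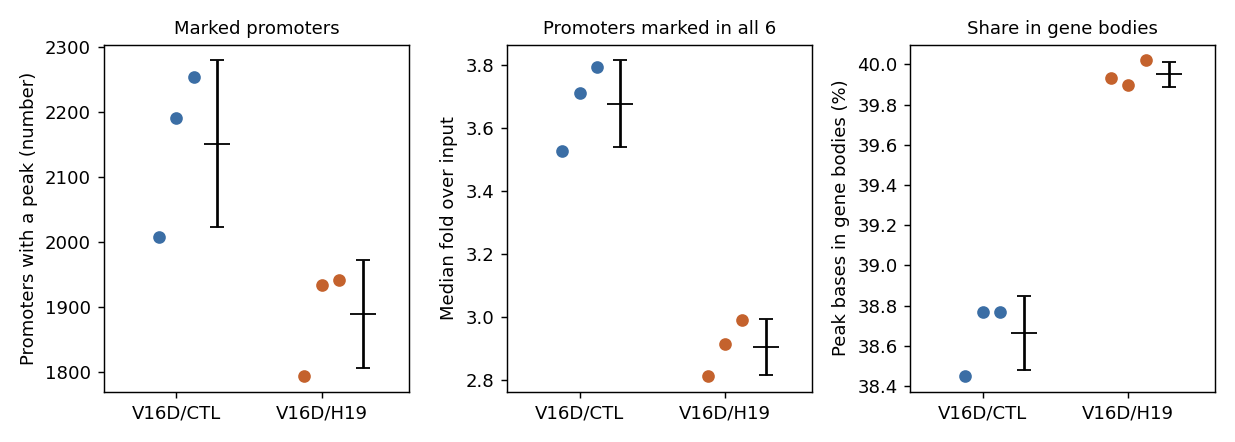
Each point is 1 library, and the black marks are the mean and SD of 3 libraries per group. The panels show, from left to right, the number of promoters with an H3K27me3 peak, the median fold over input at promoters marked in all 6 libraries, and the percentage of peak bases in gene bodies. Every axis starts above 0. The groups do not overlap in any panel, with V16D/H19 lower in the first and second and higher in the third.

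Single promoters were tested by limma on log2 fold across all 2423 promoters. In V16D/H19, 107 promoters fell (4.42%), and 0 rose, at a Benjamini-Hochberg adjusted p of 0.05. At an unadjusted p of 0.05, 518 were lower and 20 higher. The 3 V16D/H19 values lay below all 3 V16D/CTL values at 567 promoters (23.4%) and above them at 34 (1.4%). The median log2 difference over all tested promoters was -0.23, and over the 107 it was -0.83, with a range of -1.80 to -0.43. All 107 had a peak in all 3 V16D/CTL libraries, and 80 still had one in all 6 libraries. At 10 of them no V16D/H19 library had a peak. These calls are not stable. When libraries were centred at their median promoter, which removes a shift of -0.34 between the groups, 0 promoters were called lower and 0 higher by limma (368 at an unadjusted p of 0.05). With 1 library left out in turn, 0 were called lower without any 1 of the V16D/CTL libraries or without V16D/H19 replicate 1, 5 without V16D/H19 replicate 2 and 65 without replicate 3. The fits with 0 calls had 381 to 531 promoters at an unadjusted p of 0.05. All 107 kept their negative difference in these fits, but this adds no support. At 106 of them the groups did not overlap, and the smallest fall, -0.43, exceeded the shift removed by centring.

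**Figure D2:**
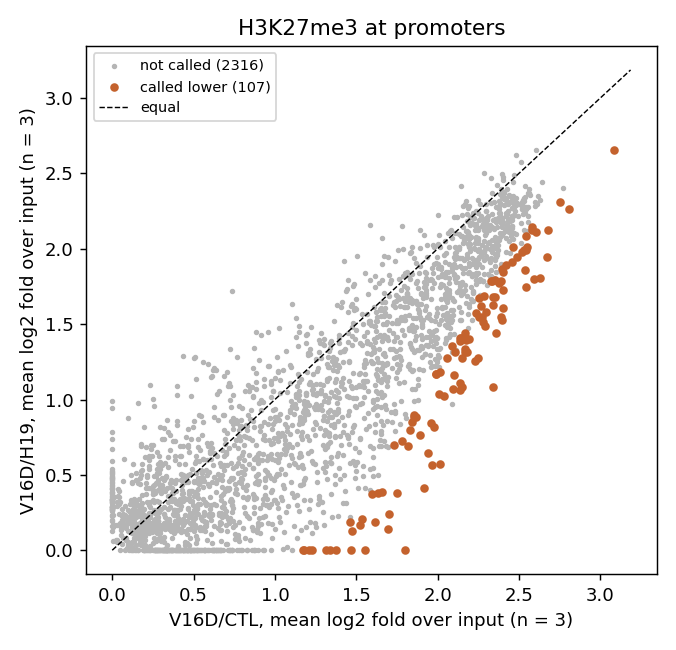
Each point is 1 of the 2423 tested promoters, at its mean log2 fold over input in 3 V16D/CTL libraries (horizontal) and 3 V16D/H19 libraries (vertical). The 107 promoters called lower lie below the dashed line of equal values, and most other promoters do too.

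Of the 12 promoters with the largest falls, 4 had no peak in the window in any V16D/H19 library, and the other 8 kept one in 1 or 2 of these libraries. ADGRG2, an adhesion G protein-coupled receptor on chromosome X, had folds of 2.58, 4.35 and 3.79 in V16D/CTL and 1 in each V16D/H19 library (log2 difference -1.80 ± 0.353 (SE), limma adjusted p = 0.0158). The merged site that overlaps this window (chrX:19120909-19123917) still had a peak in all 6 libraries, with folds of 1.52 to 1.73 in V16D/H19. CMKLR1, the receptor for the chemoattractant chemerin, had 3.10, 3.34 and 3.29 in V16D/CTL, against 1.33, 1 and 1 in V16D/H19. BMERB1 and the sulfotransferase CHST2 were also without a peak in any V16D/H19 library. At CHST2 the V16D/CTL folds were 2.75, 3.03 and 2.55 (log2 difference -1.47 ± 0.345, limma adjusted p = 0.0233). ERG, an ETS transcription factor that is often activated by gene fusion in prostate cancer, had 3.66, 4.48 and 3.30 in V16D/CTL, against 1, 1.73 and 1.37 in V16D/H19. The homeobox gene NKX2-8 had folds of 1.91, 2.31 and 3.95 in V16D/CTL and 1 in each V16D/H19 library. The remaining genes of largest change were the heparan sulfate sulfotransferase NDST3 (log2 difference -1.46), the retrotransposon-derived imprinted gene RTL1 (-1.45), the neuronal calcium sensor VSNL1 (-1.43), NKAIN3 (-1.40), the Rac exchange factor TIAM2 (-1.37) and the glycosyltransferase A4GALT (-1.36).

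Sequence upstream of the start is shown to let CpG-rich and CpG-poor members be compared. It is given for the bivalent promoter, the H3K27me3-only promoter, the SOX factor and the neuropeptide with the largest fall, among called promoters whose RefSeq sequence has the same start as the one used here. ADGRG2, BMERB1 and ERG, bivalent promoters that fell more than CHST2, CMKLR1, an H3K27me3-only promoter that fell more than RTL1, and SOX5, which fell more than SOX21, had no sequence with that start. The sequences are the 250 bases before the start in RefSeq (GRCh38.p14), read 5′ to 3′ on the gene's strand, with each CpG in capitals.
CHST2 (chr3:143119521-143119770, plus strand): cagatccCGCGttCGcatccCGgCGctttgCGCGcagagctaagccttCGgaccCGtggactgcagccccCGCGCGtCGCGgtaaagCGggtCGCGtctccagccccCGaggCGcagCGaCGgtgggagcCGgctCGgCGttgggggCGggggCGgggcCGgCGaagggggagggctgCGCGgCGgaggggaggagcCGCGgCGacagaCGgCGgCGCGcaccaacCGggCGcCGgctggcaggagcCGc
RTL1 (chr14:100903723-100903972, minus strand): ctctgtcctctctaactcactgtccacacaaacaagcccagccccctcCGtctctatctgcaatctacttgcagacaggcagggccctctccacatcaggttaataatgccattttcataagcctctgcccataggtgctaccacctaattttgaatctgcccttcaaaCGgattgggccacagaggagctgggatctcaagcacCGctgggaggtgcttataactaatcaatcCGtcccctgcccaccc
SOX21 (chr13:94712546-94712795, minus strand): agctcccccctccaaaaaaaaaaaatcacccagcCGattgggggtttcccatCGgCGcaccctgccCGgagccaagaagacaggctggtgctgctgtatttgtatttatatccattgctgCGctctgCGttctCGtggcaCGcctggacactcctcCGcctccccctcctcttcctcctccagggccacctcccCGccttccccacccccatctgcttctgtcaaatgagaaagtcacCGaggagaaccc
SST (chr3:187670395-187670644, minus strand): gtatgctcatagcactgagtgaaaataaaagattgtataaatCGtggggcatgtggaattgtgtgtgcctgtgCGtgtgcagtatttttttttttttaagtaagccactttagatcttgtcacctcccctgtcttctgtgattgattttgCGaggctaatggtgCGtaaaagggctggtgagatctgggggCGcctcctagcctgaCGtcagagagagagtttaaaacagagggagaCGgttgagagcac
The bivalent CHST2 promoter holds 42 CpGs in these bases, the SOX21 promoter 11, the SST promoter 7 and the RTL1 promoter 4. Over all tested promoters with a RefSeq sequence (1655 of 2423), the ratio of observed to expected CpG in the 300 bases around the start had a median of 0.839 at bivalent promoters and 0.488 at H3K27me3-only promoters. At the 66 promoters called lower with a sequence it was 0.782, against 0.729 at the marked promoters not called. With promoters put in 4 equal bins by this ratio, the median log2 difference was -0.13 in the lowest bin, and -0.23, -0.26 and -0.26 in the following ones. The median V16D/CTL fold was 1.51 in the lowest bin and 2.53 to 2.54 in the others, so CpG content and level moved together, and their part in the difference was not tested.

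Bivalent promoters, with H3K4me3 in at least 2 of 3 V16D/CTL libraries, made up 1196 of the tested promoters, and 1227 carried H3K27me3 only. Of the bivalent promoters 75 fell (6.27%), and of the others 32 (2.61%). The median log2 difference was -0.30 at bivalent and -0.17 at H3K27me3-only promoters. Within each library, the median log2 fold of bivalent minus that of H3K27me3-only promoters was 0.0141 to 0.122 in the 3 control libraries and -0.0826 to -0.0652 in the 3 with H19. The order of both classes was thus opposite in the groups, a difference of -0.14 (exact permutation p = 0.1, the smallest possible). With windows of 5 kb on each side the difference was -0.03 (exact permutation p = 0.2). H3K4me3 peaks were present at 75, 75 and 75 of the 107 promoters in the V16D/CTL libraries and at 81, 79 and 78 in the V16D/H19 libraries. All tested promoters together also had more H3K4me3 peaks in V16D/H19, with 1178 to 1211 in V16D/CTL, against 1245 to 1351. A promoter peak of H3K4me3 in no V16D/CTL and at least 2 V16D/H19 libraries was found at 3 of the 107 (2.80%; CACNA1E, CDH13 and DCHS2) and at 69 of the 2316 not called (2.98%). Bivalent promoters cannot count here, and they were 75 of the 107 but 1196 of all 2423 tested. The likeness of these shares is therefore no comparison of how often H3K4me3 was gained.

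Among the developmental transcription factors, SOX genes had the lowest median difference of all lists with at least 6 marked members. All 10 marked SOX genes were lower in V16D/H19, as were 1874 of all 2423 tested promoters (77.3%), with a median log2 difference of -0.51 against -0.23 over all tested promoters, and 4 of the 10 fell, against 4.42% of all. The share of all is not matched for level. In 4 equal bins by mean level, 60 of 606 promoters fell in the highest bin and 0 of 606 in the lowest. The median V16D/CTL fold was 4.47 at SOX and 4.07 at homeobox and paired-box genes, against 2.22 over all tested promoters. SOX5, a factor of neural and cartilage development, had folds of 4.99, 3.93 and 4.49 in V16D/CTL, against 2.02, 2.68 and 1.75 in V16D/H19 (log2 difference -1.07 ± 0.227, limma adjusted p = 0.0159). SOX21, which acts in neural progenitors, had 3.91, 4.63 and 5.02 against 2.17, 2.67 and 2.79. SOX8 and SOX14 fell as well. Of 26 marked bHLH genes 24 were lower (92.3%, against 77.3% of all), with a median of -0.40, but only ASCL2, a stem-cell factor, passed the test (4.07, 4.95 and 5.37 against 3.12, 3.24 and 3.21). Among the 68 homeobox and paired-box genes the median was -0.27 and 4 fell (5.88%, against 4.42% of all): NKX2-8, the forebrain and limb factor DLX5, the forebrain factor LHX8 and the chromatin organiser SATB1. HOXB9 was the single HOX cluster gene to fall of 15 marked, from 3.46, 3.48 and 4.86 to below 2 in each V16D/H19 library. Of 20 marked forkhead genes 3 fell, namely FOXA3, FOXP2 and FOXF2. At FOXP2, a factor linked to speech, the folds were 5.29, 5.60 and 4.94 in V16D/CTL, against 2.70, 2.79 and 3.17 in V16D/H19. ZIC4 and PRDM12, the latter needed for pain-sensing neurons, fell among 18 marked zinc finger regulators. No POU (7 marked) or T-box (6 marked) factor passed the test.

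Among signalling ligands and receptors, 1 gene fell in each of 4 lists. WNT7A, a secreted WNT ligand, had folds of 5.66, 5.55 and 6.99 in V16D/CTL, against 2.64, 3.99 and 3.99 in V16D/H19 (log2 difference -0.80 ± 0.161, limma adjusted p = 0.0158), and it was the single member of 22 marked WNT genes to fall. FGF9 had 4.50 to 5.76 against 2.41, 2.69 and 3.09, and was 1 of 13 marked FGF genes. BMP2 had 5.09, 5.25 and 5.41 against 3.12, 4.21 and 3.13, and was 1 of 17 marked BMP and TGF-beta genes. DLL4, a Notch ligand, had 4.52, 5.28 and 4.76 against 2.58, 2.86 and 3.39. In all 4 genes every V16D/H19 value was below every V16D/CTL value. This held at 106 of the 107 promoters called lower, so it follows from their selection, and at 23.4% of all tested promoters. These are 4.55% of marked WNT, 7.69% of FGF, 5.88% of BMP and TGF-beta and 16.7% of Hedgehog and Notch genes (1 of 6), against 4.42% of all tested promoters, and a single call in lists of this size sets no list apart. The list medians, -0.16 for WNT, -0.19 for FGF and -0.21 for BMP and TGF-beta genes, were close to the -0.23 of all tested promoters.

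The lists of neuronal genes had 0 or 1 call each. SLIT2, a repellent axon guidance ligand, had folds of 5.08, 5.09 and 5.14 in V16D/CTL, against 3.68, 3.50 and 3.23 in V16D/H19, and 24 of 27 marked axon guidance genes (88.9%) were lower, with a median of -0.37, against 77.3% of all tested promoters. Somatostatin (SST), a neuropeptide, had 4.35, 3.76 and 2.89 against 2.39, 1.67 and 1.61 (log2 difference -0.96 ± 0.277, limma adjusted p = 0.0494), and its receptor SSTR2 had 4.20, 4.18 and 4.96 against 2.48, 1.68 and 3.38. All 12 marked neuropeptide genes were lower (77.3% of all tested promoters were), with SST alone called. VGF, a granule protein of neuroendocrine cells, had 4.06, 5.16 and 4.41 against 2.55, 2.48 and 2.88. Of the channels and receptors, the two-pore potassium channel KCNK13, the calcium channel CACNA1E and the metabotropic glutamate receptor GRM3 fell, as 1 of 47 (2.13%), 1 of 22 (4.55%) and 1 of 23 (4.35%) marked members, shares near or below the 4.42% of all tested promoters. No GABA or glycine receptor (13 marked), clustered protocadherin (31), synaptic adhesion gene (20) or cytokine gene (19) passed the test. Olfactory receptors had weak marks (median fold 1.23 in V16D/CTL) and a median difference of -0.02 over 69 promoters, with 0 called. The fold floor of 1 leaves little room for a fall at such weak promoters. With promoters in 4 equal bins by mean level, the median difference was -0.08 in the lowest bin, and in the others -0.26, -0.35 and -0.24. From the lowest bin to the highest, 0, 16, 31 and 60 promoters were called lower.

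Structural genes were also among the lists with lower medians. KRT83 and KRT79, keratins of hair and skin, fell among 18 marked keratins (11.1%, median -0.41), against 4.42% of all tested promoters. KRT83 had folds of 2.79, 2.50 and 3.97 against 1.43, 1.35 and 1.13. The laminin LAMA1 and the collagen COL15A1 fell among 23 marked matrix genes (8.70%, median -0.35). CDH13 fell among 16 marked cadherins (6.25%). Calls of 1 or 2 genes in lists of this size set no list apart. The exchangers and transporters SLC8A3 and SLC19A1 fell among 48 marked solute carriers (4.17%), and SLC8A3, a sodium-calcium exchanger of nerve and muscle, had 4.97, 5.24 and 5.02 against 2.01, 1.87 and 2.53. Solute carriers (median -0.19) and HOX genes (-0.25) lay near the median of all promoters. Of the 31 lists with a marked member all had a negative median difference, and 13 were below the median of all promoters.

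**Figure D3:**
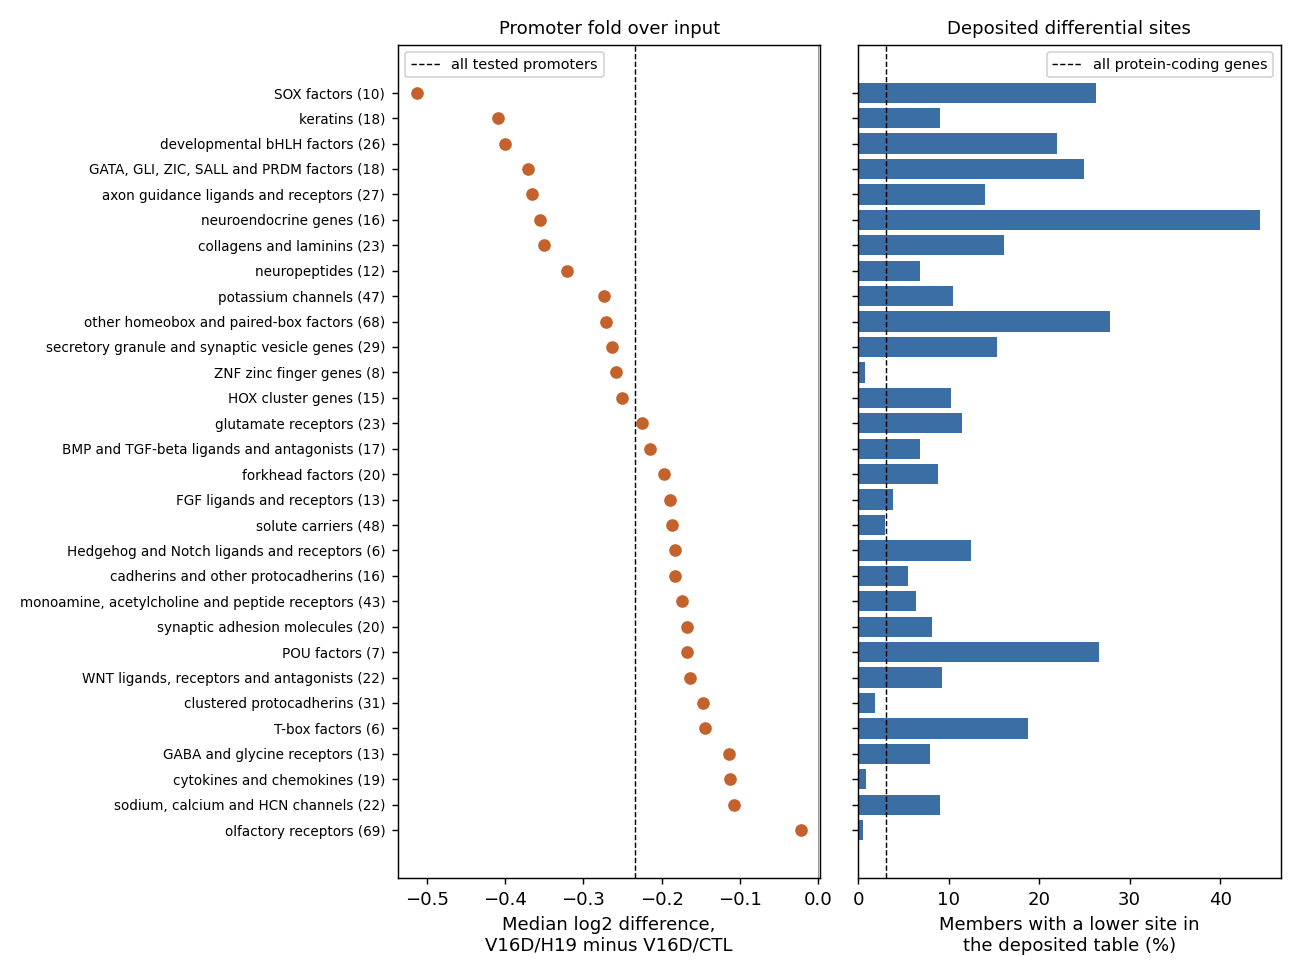
Lists with at least 6 marked promoters (number in brackets) are ordered by the median log2 difference of fold over input, V16D/H19 minus V16D/CTL, shown as points on the left. Bars on the right give the percentage of all list members with a lower site in the deposited table, and the dashed lines are the values over all tested promoters (-0.23) and over all protein-coding genes (3.05%). SOX factors lie lowest and olfactory receptors nearest to 0.

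A list of 18 neuroendocrine genes joined genes that the study names with markers of that cell state, and some of them the study named from these libraries, so their direction is not independent evidence. Of these, 8 had a lower site in the deposited table (44.4%, against 3.05% of all protein-coding genes) and 0 a higher one. They were ETV5, FGF9, HOXD10, MYT1, ONECUT1, POU3F2, RGS7 and RUNX1T1. At the promoter 16 were marked and 14 were lower (87.5%, against 77.3% of all), with a median of -0.35. RUNX1T1 and FGF9 fell (12.5%, against 4.42% of all tested promoters). RUNX1T1, a transcriptional corepressor, had folds of 4.24, 4.06 and 4.59 in V16D/CTL, against 2.42, 1.98 and 2.34 in V16D/H19. The groups did not overlap but the test was not passed at ETV5 (log2 difference -0.53), RGS7 (-0.46), HOXD10 (-0.39), NCAM1 (-0.35) and KCNB2 (-0.16). Overlapping values were found at SOX2 (-0.53), ONECUT1 (-0.39), MYT1 (-0.36), CHGB (-0.31), CDH2 (-0.21), ENO2 (-0.18), POU3F2 (-0.17), BRINP1 (0.08) and CHGA (0.62). At CHGA the folds were 1, 1.30 and 2.26 in V16D/CTL, against 1.72, 2.34 and 2.66 in V16D/H19. By promoter fold the marked genes of this list are therefore spread from a clear fall to a higher value. The deposited table had lower promoter sites at ONECUT1, MYT1 and POU3F2 (-0.30, -0.61 and -0.41 in log2 concentration), where the promoter folds overlapped.

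No promoter rose at the threshold. The promoters of smallest p among those with a higher fold, none of which passed, were ATP13A5, RGS13, MS4A2, HS3ST2 and ADGRL2, with limma adjusted p from 0.0854 to 0.123. At ATP13A5, a P5-type transport ATPase, the fold was 1 in each V16D/CTL library and 2.91, 1.64 and 1.65 in V16D/H19. At ADGRL2 (latrophilin 2, an adhesion receptor of synapses) it was 1 in each V16D/CTL library and 1.45, 1.49 and 2.39 in V16D/H19.

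Gains were called in the bodies of some genes, and coverage between genes was not compared in this way. For 3250 genes with a body of at least 10 kb and a peak in it in at least 2 libraries, the kilobases of the body under a peak were compared on the log2(kb + 1) scale, from 1 kb after the start to the gene end. This comparison was added after the data had been seen. By limma, 81 bodies fell (2.49%) and 13 rose (0.4%) in V16D/H19. At 621 bodies (19.1%) the groups did not overlap with V16D/H19 lower, and at 121 (3.72%) with V16D/H19 higher. These calls also rest on single libraries. Without V16D/CTL replicate 2 or 3, or without V16D/H19 replicate 2 or 3, 0 bodies were called in either direction by limma (419 to 522 at an unadjusted p of 0.05). Without V16D/H19 replicate 1, 7 were called lower and 2 higher, and without V16D/CTL replicate 1, 173 lower and 6 higher. The split between directions depends on scaling too. With libraries centred at their median body, which removes a shift of -0.28, 84 were lower and 171 higher, and with lists of equal length 158 and 41. All 94 bodies kept their direction in these fits, which adds no support, as they were selected by their difference in the same libraries.

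The 13 bodies that rose ranged from 16.6 kb (SPRR2B) to 2059 kb (CSMD1) in length. AGBL1, a tubulin-modifying carboxypeptidase, had 2.49, 1.94 and 4.96 kb under a peak in V16D/CTL, against 8.12, 13.5 and 18.2 kb in V16D/H19 (log2 difference 1.79 ± 0.303, limma adjusted p = 0.00391). CSMD1, a giant complement-regulating membrane protein of the brain on chromosome 8, had 41.7, 53.3 and 65.2 kb against 72.8, 99.0 and 104 kb. ADGRL2 had 30.5, 51.3 and 44.6 kb against 69.3, 72.5 and 71.9 kb. SDK1, a synaptic adhesion molecule, had 26.7, 36.2 and 42.1 kb against 56.1, 58.6 and 55.2 kb. All 13 had every V16D/H19 value above every V16D/CTL value, as 3.72% of all bodies did, which adds no support because they were selected as higher. CSMD1 and MSRA lie on chromosome 8 before 45 Mb, where 16 of 24 sites of the deposited table were higher, 9 of them assigned to CSMD1. On the other chromosomes 81 of 1033 were higher. CA10, ARL15, MSRA and ITPRID1 were likewise covered in all 6 libraries and gained, whereas NBAS, GLT8D2, PLCB1 and SPRR2B went from at most 1.39 kb in any V16D/CTL library to between 0.868 and 3.79 kb in V16D/H19. RND3 had 4.60, 3.02 and 1.82 kb against 7.88, 7.67 and 8.24 kb. SPRR2B belongs to a cluster of near-identical genes, so its reads are uncertain. The promoters of CSMD1 (log2 difference -0.16), CA10 (-0.13) and SDK1 (0.08), all marked in 6 libraries, did not pass the promoter test.

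The largest falls in body coverage were at CCDC172 (log2 difference -2.25), DGKB (-2.23), CORIN (-2.00), NKAIN2 (-1.93) and NKAIN3 (-1.89). DGKB, a diacylglycerol kinase of neurons, had 10.5, 15.9 and 16.9 kb in V16D/CTL, against 4.22, 1.39 and 1.68 kb in V16D/H19 (log2 difference -2.23 ± 0.297, limma adjusted p = 0.000419). NKAIN3, which encodes a protein that binds the sodium pump, had 16.5, 30.0 and 32.0 kb against 6.06, 6.07 and 6.01 kb, and its relative NKAIN2 had 4.95, 7.26 and 9.68 kb against 1.08, 1.72 and 0.690 kb. GRIK4, a kainate receptor subunit, had 34.9, 42.8 and 42.5 kb against 17.7, 17.8 and 21.3 kb. In these genes the groups lay far apart. The protease CORIN, the RNA-binding protein LIN28B, which maintains stem cells, and CCDC172 also fell. GPM6B, a neuronal membrane glycoprotein, had 1.77 to 2.82 kb in V16D/CTL and no peak in V16D/H19.

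By list, bodies fell at the potassium channel genes KCNK13, KCNH8 and KCNK9 (3 of 42 tested), at CACNA1E and CACNA1A (2 of 35 sodium, calcium and HCN channels), at the vesicle genes SYT16, SV2B and SV2C (3 of 32), at the axon guidance genes SLIT1 and ROBO2 (2 of 35) and at PAX7 (1 of 33 homeobox and paired-box genes). The other lists had 1 call each, GRIK4 of 24 glutamate receptors, COL25A1 of 38 collagens and laminins, ZNF860 of 19 ZNF genes and MYT1 of 12 neuroendocrine genes, or 0. Of all bodies 2.49% fell. At SV2B, a synaptic vesicle protein, coverage was 16.7, 17.9 and 18.1 kb in V16D/CTL, against 10.4, 11.1 and 8.07 kb in V16D/H19. MYT1, a neuronal zinc finger factor of the neuroendocrine list, had 13.7, 14.5 and 17.4 kb against 7.79, 6.63 and 9.58 kb, although its promoter had a peak in only 2 libraries, both V16D/CTL. No member of the 33 lists rose. The median fall was smaller in the longest bodies. The median difference was -0.21 at 10 to 50 kb (1048 bodies), -0.22 at 50 to 200 kb, -0.16 at 200 to 500 kb and -0.05 over 500 kb (268 bodies). Of the 13 that rose 7 were over 500 kb, but 8 bodies of that length fell. In that class 44.4% of bodies had a positive difference. The groups did not overlap at 35 of them with V16D/H19 lower and at 18 with V16D/H19 higher.

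**Figure D4:**
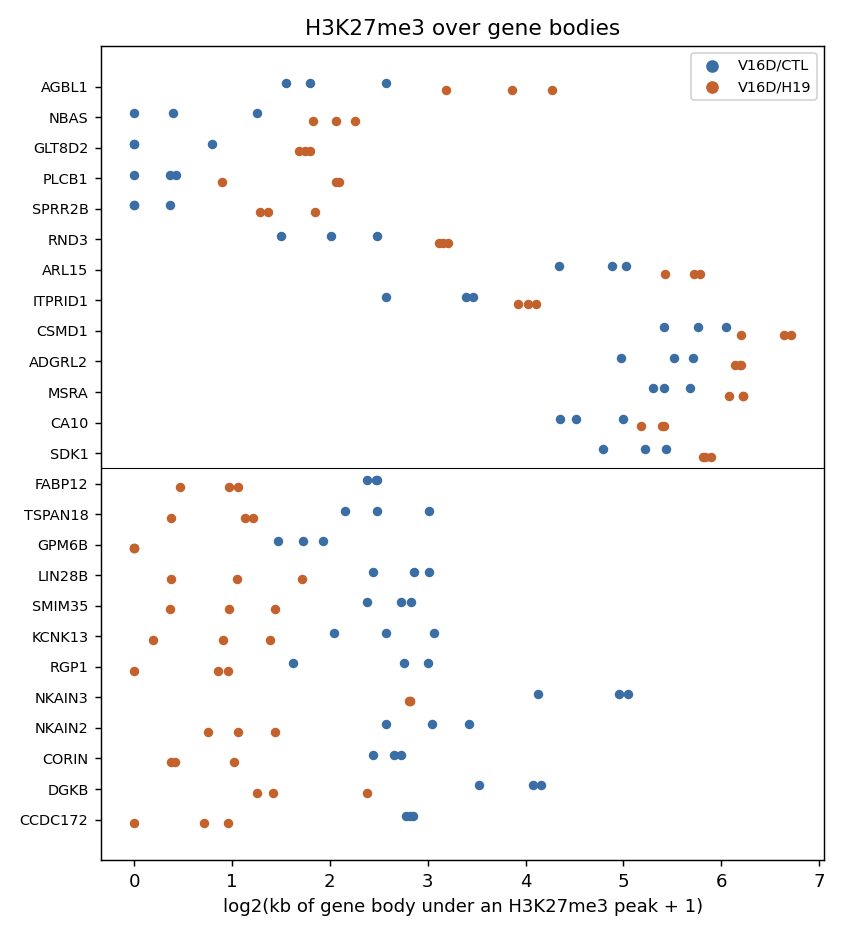
Each point is 1 library, with the kilobases of the gene body under an H3K27me3 peak on a log2(kb + 1) axis, V16D/CTL in blue and V16D/H19 in orange. The upper block holds the 13 bodies that rose and the lower block 12 of the 81 that fell, and within each gene shown the groups do not overlap.

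Peaks of all 6 libraries were also merged into sites, wherever they lay, and the 58789 sites found in at least 2 libraries were tested by limma. In V16D/H19, 220 sites fell (0.374%) and 12 rose (0.0204%). Sites near a start made up 94 of the 220, from 2605 promoter sites, 48 lay in gene bodies (24691 sites) and 69 between genes (31383 sites). Of the 12 that rose, 4 lay in gene bodies, 3 between genes, 1 near a start and 4 on unplaced or unlocalized sequences. At promoter sites the groups did not overlap with V16D/H19 lower in 27.1% of cases, at gene body sites in 7.45% and at intergenic sites in 7.59%. With V16D/H19 higher the shares were 1.5%, 2.6% and 2.4%. A site with no peak in 1 V16D/CTL library has a fold of 1 there and cannot count as lower. The shares thus also depend on how regularly sites of each class were called. Leaving out 1 library left at most 1 call, and the limma fit with the replicate number as a block left 0 (4090 at an unadjusted p of 0.05). The limma fit with no intensity trend also left 0 (3715 at an unadjusted p of 0.05). In the main fit the error of a site came from the trend at its level, so its own replicate spread hardly entered. Calls therefore include sites where the groups overlapped. One of them (chr22_KI270733v1_random:118870-119387), called lower, had 4.59, 3.06 and 4.23 in V16D/CTL, against 1, 1 and 5.31 in V16D/H19. The sites of largest fall lay on an unlocalized chromosome 22 sequence and within MGAT4C, CACNA2D1 and SLIT1 and near SYT14, and at each the fold was 1 in all V16D/H19 libraries. The CACNA2D1 site (chr7:81964637-81965261), in a calcium channel subunit gene, had 3.78, 3.46 and 2.96 in V16D/CTL. The sites of largest gain lay on an unlocalized chromosome 14 sequence, within GNAQ and CSMD1, near SCUBE3, and at a distance from GJB5. Each of these had a fold of 1 in all V16D/CTL libraries, and the CSMD1 site (chr8:4664283-4664849) had 3.97, 2.86 and 3.04 in V16D/H19. The single promoter site that rose, named here after its values were seen, was at the organic cation transporter SLC22A4, with 3.54, 3.02 and 3.22 in V16D/H19 against 1.

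The deposited table of H3K27me3 sites lists 1140 regions that the authors selected as different between the groups, with a pooled log2 read concentration for each group and no replicate values. Here it was described and not tested. Of its sites, 1043 were lower and 97 higher in V16D/H19. Lower sites were annotated to promoters in 55.8% and to introns in 11.4% of cases, and higher sites in 19.6% and 40.2%. Lower sites had a median V16D/CTL concentration of 7.17 and higher sites of 4.84. The lower sites named 599 protein-coding genes (3.05% of all), the higher sites 44 (0.224%), and 5 genes were in both.

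By list, 35 of 126 homeobox and paired-box genes (27.8%) had a lower site and 0 a higher one, among them EN1, EN2, LHX3, LHX4, NKX2-1, NKX2-2, OTP, PAX2, PAX5 and PAX7. The shares were 26.3% of SOX factors, 26.7% of POU factors, 25.0% of GATA, GLI, ZIC, SALL and PRDM factors, and 22.0% of bHLH factors, which included NEUROG3, a driver of endocrine differentiation. Collagens and laminins reached 16.1%, vesicle genes 15.4% and axon guidance genes 14.1%. Olfactory receptors (0.518%), ZNF genes (0.787%) and cytokines (0.877%) were below the 3.05% of all genes. As these shares follow in part from how many genes of each list were marked at all, they do not say that one family lost more per marked gene.

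Higher sites were assigned to single members of the lists, namely GATA3, GABRA6, CHRM3, SSTR4, EPHA7, ROBO2, CNTN6 and NRXN3. Those of GATA3, SSTR4, CNTN6 and CHRM3 lay far from the gene start, at distances of -58045 to -352614 bases. ROBO2 also had lower sites at its promoter (-0.50) and in an intron (-0.78), and its body fell. Genes with several higher sites were CSMD1 (9 sites, 1 lower site), ADGRL2 (5), NRXN3, SDK1 and a gene known only by a clone name (3 each) and PTPRD, EBF1, NUDT7 and OTOL1 (2 each), of which CSMD1, ADGRL2 and SDK1 also rose in body coverage from the same libraries. The highest differences in concentration were 2.65 at LINC01340, 1.99 and 1.69 at CSMD1, 1.97 at a distal site assigned to MSR1 and 1.80 at RP11-309H21.2. The lowest were -2.03 at an unnamed chromosome 8 site, -1.90 near C1orf105, -1.86 at a site far from MIR378C, -1.85 at SBK3 and -1.72 at an unnamed chromosome 3 site. Genes with many lower sites were RBFOX3, a neuronal splicing factor (15 sites, -1.14 to -0.20), PRDM16 (9), CFAP46 (7) and CERK, FBXL2 and SALL3 (6 each).

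**Figure D5:**
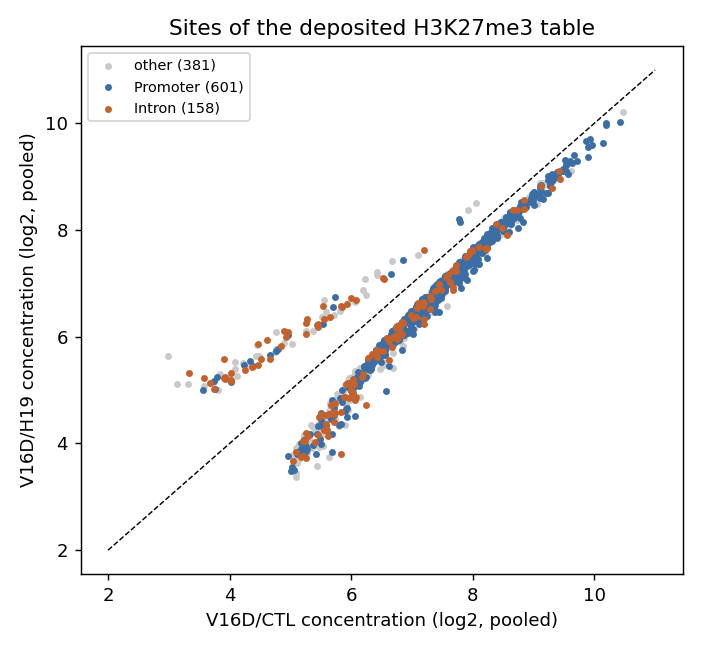
Each point is 1 of the 1140 sites of the deposited table, at the pooled log2 concentration in V16D/CTL (horizontal) and V16D/H19 (vertical), coloured by annotation, with a dashed line of equal values. Sites above the line, 97 in all, have a median V16D/CTL concentration of 4.84, against 7.17 below the line, and are more often intronic.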

How the data were processed

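H3K27me3 ChIP-seq was done in 3 V16D/CTL and 3 V16D/H19 libraries. The authors called broad peaks with MACS2 per library against input (hg38 per the labels). The deposited peak lists hold fold enrichment over input (a ratio), −log10 p and −log10 q values and a display score per peak. The deposited table, made with DiffBind and ChIPseeker, holds pooled log2 concentrations per group. Its fold, p-value and FDR columns are the authors' comparison and were not used. Gene starts came from RefSeq (GRCh38.p14), with the strand from RefSeq for 15842 genes and from GENCODE for 3829. Of 20033 protein-coding genes, 19671 had a start and strand.

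Mean log2 fold per promoter or merged site, and log2(kb + 1) per gene body, were compared with limma 3.58.1 (R 4.3.3, empirical Bayes with an intensity trend, Benjamini-Hochberg adjustment over all features, threshold 0.05). The ± value given with a log2 difference is the moderated SE of this fit. It is drawn towards the SE typical of that level and is not the spread of the gene's own replicates alone. Per-library summaries used exact two-sided permutation tests. The steps were tested on simulated data. Promoter sequences on chromosome 8 were not considered for printing. Named genes were those passing with the largest difference and a peak in all 3 libraries of the higher group (12 promoters, and up to 3 per gene list), all luminal and neuroendocrine list members, 5 sites per direction, and 5 table sites per direction. All 13 gene bodies that rose and a choice by the same rule of those that fell were named. The members and lists were chosen with earlier results of these data known. Alternatives were the scaling, the filter, the peak threshold, the list length, the window, the trend, the replicate block, chromosome 8, and each replicate left out. Same-numbered libraries did not deviate together across promoters (r = -0.0338, -0.0209 and 0.0381), so the numbers were not taken to pair them.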

Additional observations from a re-analysis of the deposited data

How the results depend on the processing

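The 107 promoters called lower became 0 with centred libraries, 0 with a peak in at least 1 library, 0 at the stricter peak threshold (−log10 q of 2), 6 with the share covered in place of the fold, 16 with no trend, and 308 with 5 kb windows, where 3 were called higher. With the replicate block 56 were lower. Leaving out 1 replicate gave 0 to 65 lower. The causes were not tested. Across promoters the replicate numbers did not pair the libraries, and leaving the block in or out says nothing of the size of an effect. Sites gave 220 lower and 12 higher, and 31 and 19 when centred, 337 and 7 with a peak in all 6 libraries, 118 and 4 with at least 1, 110 and 1 at the stricter threshold, 8 and 0 with the share covered, 0 and 0 with no trend, 0 and 0 with the replicate block, and 8 and 2 with peaks up to 1 kb apart merged. Leaving out 1 replicate gave 0 to 1 lower and 0 to 0 higher sites. Gene bodies, added after seeing the data, gave 81 lower and 13 higher, and 40 and 2 with a peak in at least 1 library, 245 and 5 at the stricter threshold, 158 and 41 with equal lists, 17 and 3 with no trend, 33 and 2 with a prior of 0.1 kb, and 171 higher when centred. Without chromosome 8, 8 were higher. Leaving out 1 replicate gave 0 to 173 lower and 0 to 6 higher. The difference in promoters with a peak (-262) was -399 at the stricter threshold. The difference in median fold (-0.771) was -0.281 with 5 kb windows, and that between bivalent and H3K27me3-only promoters -0.0266. Of the table, 153 lower and 52 higher sites differed by at least 1. One named promoter, COL15A1, reversed with the share covered (3.13 percentage points). For named genes under the alternatives, 457 values kept their side of the threshold and 780 lost it with the same direction. The design with 3 libraries a group cannot give an exact permutation p under 0.1.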

Other observations

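Several genes of related function fell together without being in any of the lists. They were picked after their values were seen, carry no test as a group, and depend on single libraries as the other promoter calls do. NKAIN1, NKAIN2 and NKAIN3, which encode proteins that bind the sodium pump, all fell at the promoter (log2 differences -0.45, -1.04 and -1.40 by limma). RET and GFRA1, which together form the receptor for the growth factor GDNF, both fell (-0.79 and -0.54). At RET the folds were 4.42, 4.78 and 4.54 in V16D/CTL, against 2.40, 2.83 and 2.72 in V16D/H19. The growth factor IGF2 had 3.79, 5.25 and 5.17 in V16D/CTL, against 2.27 to 2.63 in V16D/H19, and PDGFA fell too (-0.75). CCND2 and CDK6, a cyclin and its kinase, fell by 0.82 and 0.53 on the log2 scale, and MYCN, an oncogene of neuroendocrine tumours, by 0.80. In all 10 genes the groups did not overlap, as at 23.4% of all tested promoters.

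Counts differed between the parts of chromosome 8 before and beyond 45 Mb. Before 45 Mb, 8 table sites were lower and 16 higher, 0 gene bodies fell and 2 rose, and the median promoter difference was -0.15. Beyond 45 Mb, 83 table sites were lower and 0 higher, 7 of 101 bodies fell and 0 rose, and the promoter median was -0.31. On the other chromosomes 952 table sites were lower and 81 higher. There 74 of 3099 bodies fell and 11 rose, and the promoter median was -0.23.

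Of the 232 merged sites that passed, 13 lay on unplaced or unlocalized sequences, which hold 110 of the 58789 sites tested. Of these 13, 9 were lower and 4 higher.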
